A study of Mus musculus with 18 samples.

Results

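Adrenalectomy was compared with sham operation in hair follicle stem cells (HFSC), the epithelial cells of the follicle bulge that regrow the hair follicle, purified from mouse skin by flow cytometry. The comparison used 4 RNA-seq libraries of the 18 in the series: ADX replicates 1 and 2 and Sham replicates 1 and 2, chosen by their sample labels, and it covered the 15231 genes of 27933 that passed a filter on low counts. All of these libraries came from female wild-type C57BL/6 mice. ADX mice had their adrenal glands removed, a further group of 2 libraries of the same strain, sex and genotype, ADX+CORT, was adrenalectomised and fed corticosterone, and Sham mice underwent a sham operation. ADX+CORT levels are given for description, since their comparison with either group shares its libraries. GR KO mice (Pdgfra-CreER; GR fl/fl, with 129/C57BL/6 background) and their wild-type Control mice, 2 female libraries each, both received tamoxifen injections for 6 days, and they served for 1 test of the difference between effects. With ADX+CORT, they also entered the single fit of all 10 HFSC libraries, and so shaped the filter on low counts and the estimate of spread. In GR KO the Cre is driven by Pdgfra, a gene of dermal mesenchymal cells, so the deletion was not directed at the HFSC. The labels give no age, no time since surgery, no sorting gate and no count of animals per library, so the p-values measure the spread between libraries, which may be technical.

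Corticosterone is the main circulating glucocorticoid of the mouse and is made in the adrenal cortex. It acts through the glucocorticoid receptor, a ligand-activated transcription factor encoded by Nr3c1, which raises some genes and represses others, among them many inflammatory genes. HFSC rest for most of the hair cycle and divide when growth begins, and the series title asks whether corticosterone holds them at rest through the secreted protein Gas6.

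In ADX HFSC, 43 genes rose and 2 fell relative to Sham HFSC (edgeR quasi-likelihood test, Benjamini-Hochberg adjusted p under 0.05), which is 0.282% and 0.0131% of the genes tested and 0.295% together. The risen genes included mitosis and histone genes, genes of the upper follicle and its cornified layers, growth and stress signalling genes, and the lipase inhibitor Angptl4. The 2 fallen genes were Slc14a1, a urea transporter, and Chat, the enzyme that makes acetylcholine. At an unadjusted p under 0.05, 1372 genes (9.01%) were higher and 946 (6.21%) lower, and both ADX libraries lay above both Sham libraries for 25.5% of genes and below both for 23.9%. Each of the 45 calls kept its sign under all 11 alternatives tried. The calls were chosen from these same libraries, so the kept sign is no further support for them. Without Sham replicate 1 no gene was called and the adjusted p of these 45 genes was 0.135 to 0.344, and without Sham replicate 2 none of the 45 passed (0.0507 to 0.251). Without ADX replicate 1, 4 of them passed (Defb6, Angptl4, Cd209e and Cd83), and without ADX replicate 2, 43 of them passed. DESeq2 called 574 genes higher (2.93%) and 266 lower (1.36%), in all 840 (4.28%) of the 19619 genes with any read, and these included all 45. It gave some of the 19619 no adjusted p, Tcap and mt-Nd3 among them. These shares therefore have another base than those of edgeR. A fit of the 6 libraries of the surgery experiment called 110 higher (0.778%) and 36 lower (0.255%), 1.03% in all, and 40 of the 45 were among them. An offset for GC content and exonic length left 2 of the 45, Slco2b1 and 1810011O10Rik.

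**Figure D1:**
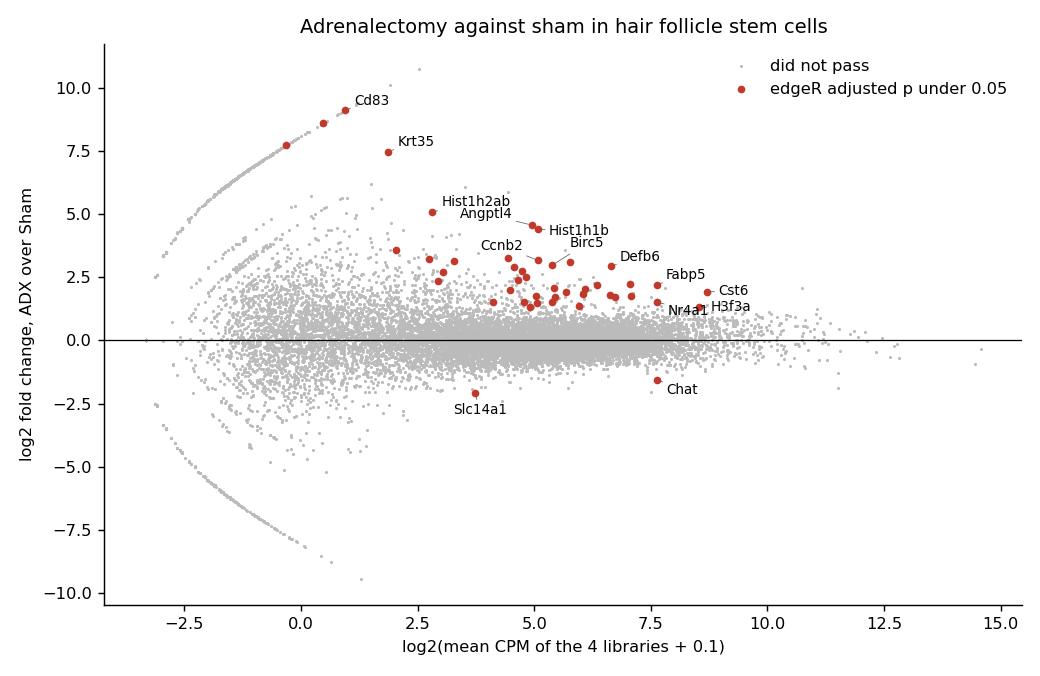
Each point is 1 of the 15231 genes tested, with its mean level over the ADX and Sham libraries on the x axis (log2 of CPM plus 0.1) and its log2 fold change, ADX over Sham, on the y axis. Red points are the 45 genes past an edgeR adjusted p of 0.05, of which 43 lie above 0 and 2, Slc14a1 and Chat, below.

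The 4 libraries held 14067139 to 17545373 counts, with 15283 to 15503 genes detected in each. The Pearson correlation of log2 levels across genes was 0.941 between the ADX libraries and 0.953 between the Sham libraries. On the second principal component of all 10 HFSC libraries, which carried 15.7% of the variance, ADX replicate 1 stood at −82.3 and ADX replicate 2 at −25.0, while the Sham libraries stood at 9.77 and 5.64. ADX replicate 1 thus lay apart from its partner. The defining HFSC markers Cd34, Itga6, Krt15, Krt14, Krt5, Lhx2, Sox9, Tcf7l1, Nfatc1, Lgr5 and Foxc1 were detected in every library, and the lowest of their levels was 30.7 CPM (counts scaled by library size to a common total), for the transcriptional repressor Tcf7l1 in Sham replicate 2.

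Mitosis genes were higher in both ADX libraries. Ccnb2, which encodes cyclin B2, a partner of the mitotic kinase Cdk1, stood at 83.4 and 38.1 CPM in ADX and at 16.2 and 6.62 CPM in ADX+CORT, against 6.34 and 7.13 CPM in Sham. It rose by 3.17 on the log2 scale (SE 0.55, edgeR adjusted p = 0.0393). Both ADX libraries lay above all Sham and ADX+CORT libraries, with ADX replicate 1 the higher. Birc5, encoding survivin of the chromosomal passenger complex, had 106 and 40.6 CPM in ADX and 6.70 and 12.01 CPM in Sham, and rose by 2.97 on the log2 scale (SE 0.51, edgeR adjusted p = 0.0393). Cks2, a small subunit of cyclin-dependent kinases, had 65.9 and 26.9 CPM in ADX and 6.23 and 7.35 CPM in Sham, 2.77 on the log2 scale (SE 0.50, edgeR adjusted p = 0.0439). For both genes the ADX libraries lay above the other 4. Cdkn3, a phosphatase that acts on these kinases, averaged 17.2 ± 7.83 CPM (SD, n = 2) in ADX and 1.91 ± 0.29 CPM (SD, n = 2) in Sham, 3.17 on the log2 scale (SE 0.54, edgeR adjusted p = 0.0393). Lockd, a long noncoding RNA that neighbours the cell cycle inhibitor gene Cdkn1b, averaged 41.9 ± 24.4 CPM (SD, n = 2) in ADX and 5.53 ± 1.17 CPM (SD, n = 2) in Sham, 2.92 on the log2 scale (SE 0.51, edgeR adjusted p = 0.0393). The microtubule regulator Stmn1 (log2 fold change 2.23) and the chromatin protein Hmgb2 (1.76) also rose. Without ADX replicate 1 the log2 fold change was 2.499 for Ccnb2, 2.12 for Birc5, 1.98 for Cks2, 2.16 for Lockd and 1.55 for Stmn1. Of these 7 called genes none passed without Sham replicate 1 (adjusted p 0.205 to 0.259), without Sham replicate 2 (0.102 to 0.154), without ADX replicate 1 (0.125 to 0.262) or with the offset for GC content and length (0.0607 to 0.145).

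Of the 34 genes in a list of G2 and M phase genes, all were tested and 3 rose (Ccnb2, Birc5 and Cks2), while 31 did not pass. At an unadjusted p under 0.05, 31 were higher and 0 lower, next to 9.01% and 6.21% of all genes tested. Both ADX libraries lay above both Sham libraries for 33 of the 34, next to 25.5% of all genes tested. Their median log2 fold change was 2.19, next to 0 over all genes tested, and 1.38 without ADX replicate 1. Their summed level was 2508 CPM in ADX replicate 1 and 995 CPM in ADX replicate 2, 643 and 272 CPM in ADX+CORT, and 369 and 419 CPM in Sham. Members that did not pass include Ube2c, which marks mitotic proteins for degradation, with 183 and 76.6 CPM in ADX and 19.0 and 26.3 CPM in Sham (edgeR adjusted p = 0.0637), and the proliferation marker Mki67, with 179 and 45.7 CPM in ADX and 24.5 and 26.7 CPM in Sham (edgeR adjusted p = 0.194). The sum and all genes named here were highest in ADX replicate 1. In bulk libraries such as these, fewer cells of a type and less RNA per cell cannot be told apart.

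The promoters of 4 called mitosis genes are shown because the list as a whole carried 2 sequence elements known from genes of this phase: the CCAAT box, bound by NF-Y, and TTTGAA, the core of the cell cycle homology region. Both were searched on both strands, and they share no overlap with each other. Capitals mark every match to either element, in the letters of the strand shown. The windows run 5′ to 3′ from 250 bases before to 50 after the gene start, from RefSeq on GRCm38.p6. They lie at chr9:70421505-70421804 on the minus strand for Ccnb2, and on the plus strand at chr13:51644982-51645281 for Cks2, chr14:46760291-46760590 for Cdkn3 and chr11:117848987-117849286 for Birc5.
Ccnb2: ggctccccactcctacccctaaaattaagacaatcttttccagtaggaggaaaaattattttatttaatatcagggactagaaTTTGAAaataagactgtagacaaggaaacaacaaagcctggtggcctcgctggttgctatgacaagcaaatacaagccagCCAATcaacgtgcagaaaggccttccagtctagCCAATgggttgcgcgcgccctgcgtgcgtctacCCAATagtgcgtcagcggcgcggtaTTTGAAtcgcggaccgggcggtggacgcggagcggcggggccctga
Cks2: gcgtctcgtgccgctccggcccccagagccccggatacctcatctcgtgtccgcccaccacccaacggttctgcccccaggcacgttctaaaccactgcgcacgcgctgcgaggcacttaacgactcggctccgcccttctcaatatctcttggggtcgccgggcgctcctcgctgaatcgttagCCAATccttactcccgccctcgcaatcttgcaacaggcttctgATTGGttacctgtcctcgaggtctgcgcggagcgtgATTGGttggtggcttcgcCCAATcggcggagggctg
Cdkn3: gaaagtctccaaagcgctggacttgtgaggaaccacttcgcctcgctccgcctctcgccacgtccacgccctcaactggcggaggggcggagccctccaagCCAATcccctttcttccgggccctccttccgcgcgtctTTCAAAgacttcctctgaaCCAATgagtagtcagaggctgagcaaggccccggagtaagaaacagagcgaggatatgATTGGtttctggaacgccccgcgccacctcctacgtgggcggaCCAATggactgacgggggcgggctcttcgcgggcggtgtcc
Birc5: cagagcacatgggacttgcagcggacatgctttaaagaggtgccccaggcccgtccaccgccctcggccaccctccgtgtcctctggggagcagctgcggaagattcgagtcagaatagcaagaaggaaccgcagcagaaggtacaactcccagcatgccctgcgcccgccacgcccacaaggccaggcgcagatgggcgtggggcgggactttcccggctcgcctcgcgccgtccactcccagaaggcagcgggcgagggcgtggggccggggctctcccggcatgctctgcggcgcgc
The Ccnb2 window holds 3 CCAAT and 2 TTTGAA matches, Cks2 holds 4 CCAAT matches, Cdkn3 holds 4 CCAAT and 1 TTTGAA, and Birc5 holds neither in this window. Among 32 windows of 30 list genes found in the table, 26 held CCAAT and 25 held TTTGAA. Over all 32851 windows the shares were 37.4% and 17.9%. At least 3 CCAAT matches were found in 11 of the 32 windows and in 3.37% of all windows. These motifs were chosen with the expression results known, and a match describes the letters only.

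Histone genes rose as well, 7 of the replication-dependent ones, which all lie on chromosome 13 between 21779883 and 23751598, and the variant H3f3a on chromosome 1. Hist1h1b, a linker histone, had 105 and 23.8 CPM in ADX, against 2.70 and 3.39 CPM in Sham, 4.40 on the log2 scale (SE 0.73, edgeR adjusted p = 0.0393). The linker histone Hist1h1c had 134 and 193 CPM in ADX and 51.3 and 46.3 CPM in Sham (log2 fold change 1.74, SE 0.28, edgeR adjusted p = 0.0393), and here ADX replicate 2 was the higher. The core histone gene Hist1h2ae had 142 and 52.9 CPM in ADX and 8.99 and 13.3 CPM in Sham, 3.12 on the log2 scale (SE 0.50, edgeR adjusted p = 0.0393). Hist1h2ab (log2 fold change 5.10), Hist1h1d (3.27), Hist1h4d (2.19) and Hist1h2bc (1.85) rose too, and H3f3a, a replication-independent H3.3 gene, rose by 1.31 on the log2 scale. Without ADX replicate 1 the log2 fold change was 2.97 for Hist1h1b, 2.25 for Hist1h2ae, 4.23 for Hist1h2ab, 2.40 for Hist1h1d and 1.56 for Hist1h4d, and without ADX replicate 2 it was 5.12 for Hist1h1b. No ADX library overlapped a Sham library for any of these 8 genes. Of 67 histone genes in the files 52 were tested and 25 were higher at an unadjusted p under 0.05, 0 lower, next to 9.01% and 6.21% of all genes tested. The ADX libraries lay above the Sham libraries for 37 of the 52, next to 25.5% of all genes tested. The median log2 fold change of the 52 was 2.61 (1.43 without ADX replicate 1). Summed, all 67, tested or not, held 1133 and 684 CPM in ADX, 246 and 289 CPM in ADX+CORT, and 208 and 226 CPM in Sham. Histone genes have near-identical copies, most of their mRNAs lack a poly(A) tail, and the SMART-Seq chemistry primes on poly(A), so single-gene values are uncertain. Without Sham replicate 1 or 2 or ADX replicate 1 none of the 8 calls remained (adjusted p 0.205 to 0.344, 0.102 to 0.187 and 0.0601 to 0.332), and with the offset for GC content and length the adjusted p was 0.0652 to 0.218.

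None of the 30 S phase genes passed, and 15 were higher and 0 lower at an unadjusted p under 0.05, next to 9.01% and 6.21% of all genes tested. The ADX libraries lay above both Sham libraries for 22 of them, next to 25.5% of all genes tested. The median log2 fold change was 0.90, and 0.43 without ADX replicate 1. Tyms, which makes thymidylate for DNA, had 138 and 81.1 CPM in ADX and 35.6 and 43.9 CPM in Sham (log2 fold change 1.46, SE 0.32, edgeR adjusted p = 0.0739). Pcna, the sliding clamp of DNA polymerase, had 216 and 145 CPM in ADX and 94.9 and 98.9 CPM in Sham (log2 fold change 0.90, SE 0.26, edgeR adjusted p = 0.131). Among 14 tested regulators of G1 (cyclin-dependent kinase inhibitors and D cyclins), none passed, 0 were higher and 1 was lower at an unadjusted p under 0.05. The inhibitor Cdkn1b had 98.5 and 73.6 CPM in ADX and 103 and 81.9 CPM in Sham, and cyclin D1 (Ccnd1) had 122 and 102 CPM in ADX and 105 and 91.1 CPM in Sham, so the groups overlapped for both.

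**Figure D2:**
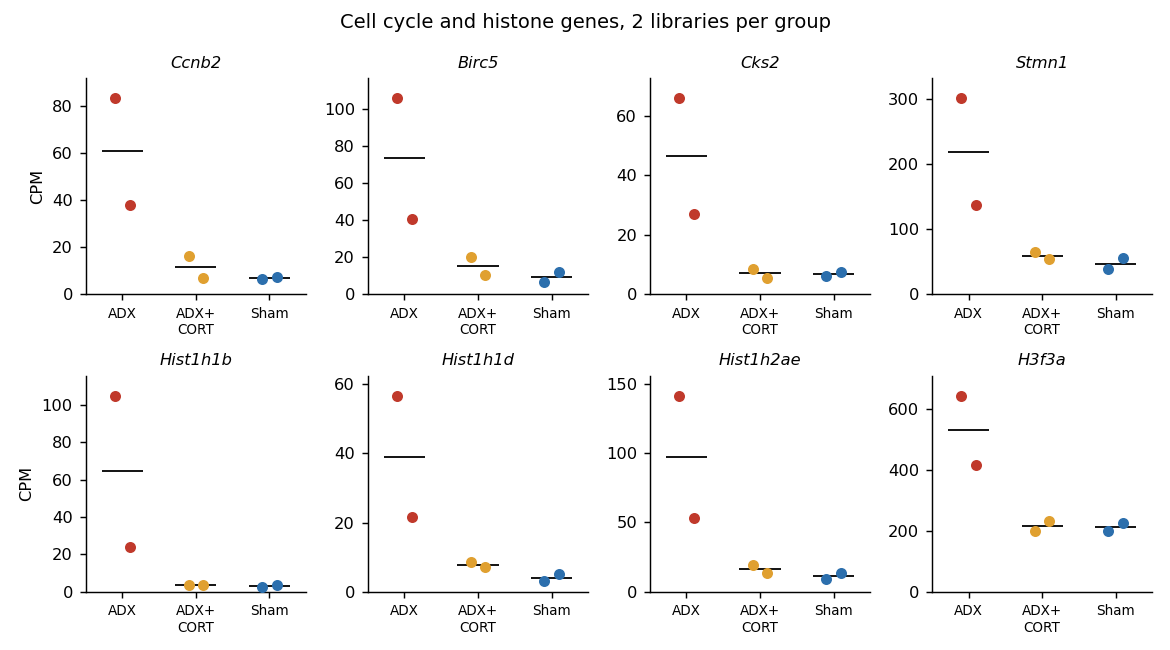
CPM of 8 called cell cycle and histone genes in the 2 libraries of ADX, ADX+CORT and Sham HFSC, with points for libraries and black lines for group means. Both ADX points lie above all ADX+CORT and Sham points in each panel, and ADX replicate 1, drawn on the left, is the higher of the ADX pair in all 8.

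Few genes fell past the threshold. Chat (chr14:32408203-32465909, mm10 as in the files) had 71.4 and 130 CPM in ADX, 277 and 291 CPM in ADX+CORT, and 291 and 303 CPM in Sham, −1.55 on the log2 scale (SE 0.28, edgeR adjusted p = 0.0439). Slc14a1 had 4.85 and 5.26 CPM in ADX, 17.1 and 19.5 CPM in ADX+CORT, and 21.4 and 20.98 CPM in Sham, −2.07 on the log2 scale (SE 0.34, edgeR adjusted p = 0.0393). Both genes were lower in each ADX library than in any of the other 4. Without Sham replicate 1 their adjusted p was 0.205 for each, without Sham replicate 2 it was 0.134 to 0.151, and without ADX replicate 1 it was 0.198 to 0.261. The lower genes with the next smallest p did not pass. Ctgf, a matricellular growth factor, had 824 and 1666 CPM in ADX, 1753 and 2244 CPM in ADX+CORT, and 4467 and 4677 CPM in Sham (log2 fold change −1.88, SE 0.37, edgeR adjusted p = 0.0600). The transglutaminase Tgm5 had 1450 and 1972 CPM in ADX and 4470 and 3870 CPM in Sham (edgeR adjusted p = 0.0545), and Pdzrn4 had 120 and 150 CPM in ADX and 322 and 309 CPM in Sham (edgeR adjusted p = 0.0509).

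None of 20 bulge stem cell markers passed the threshold. At an unadjusted p under 0.05, 0 were higher and 7 were lower, next to 6.21% of all genes lower. The median log2 fold change was −0.26. The ADX libraries lay below both Sham libraries for 10 of the 20, next to 23.9% of all genes tested. Fgf18, a growth factor that keeps HFSC at rest, had 16.8 and 36.9 CPM in ADX, 50.7 and 60.2 CPM in ADX+CORT, and 83.0 and 86.9 CPM in Sham (log2 fold change −1.66, SE 0.34, edgeR adjusted p = 0.0637). Cd34, a surface marker of the bulge, had 767 and 1493 CPM in ADX, 2469 and 2268 CPM in ADX+CORT, and 2527 and 2350 CPM in Sham (log2 fold change −1.11, SE 0.29, edgeR adjusted p = 0.1005). Krt15, the bulge keratin, had 11439 and 19408 CPM in ADX and 26681 and 32586 CPM in Sham (log2 fold change −0.94, SE 0.29, edgeR adjusted p = 0.149). In these genes ADX replicate 1 was the lowest library and the groups did not overlap. The transcription factors Nfatc1 and Lhx2 both stood at −0.94 (edgeR adjusted p = 0.138 and 0.210), the keratin Krt5 at −0.65 and the receptor Lgr5 at −0.61. Sox9 (−0.14), Itga6 (−0.11), Krt14 (−0.01), Foxc1 (−0.16) and Tcf7l1 (0.23) lay within the spread of the libraries, and the sign of Sox9, Krt14 and Foxc1 turned without single libraries. Without ADX replicate 1 the adjusted p of Fgf18 was 0.332 and that of Cd34 0.556.

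**Figure D3:**
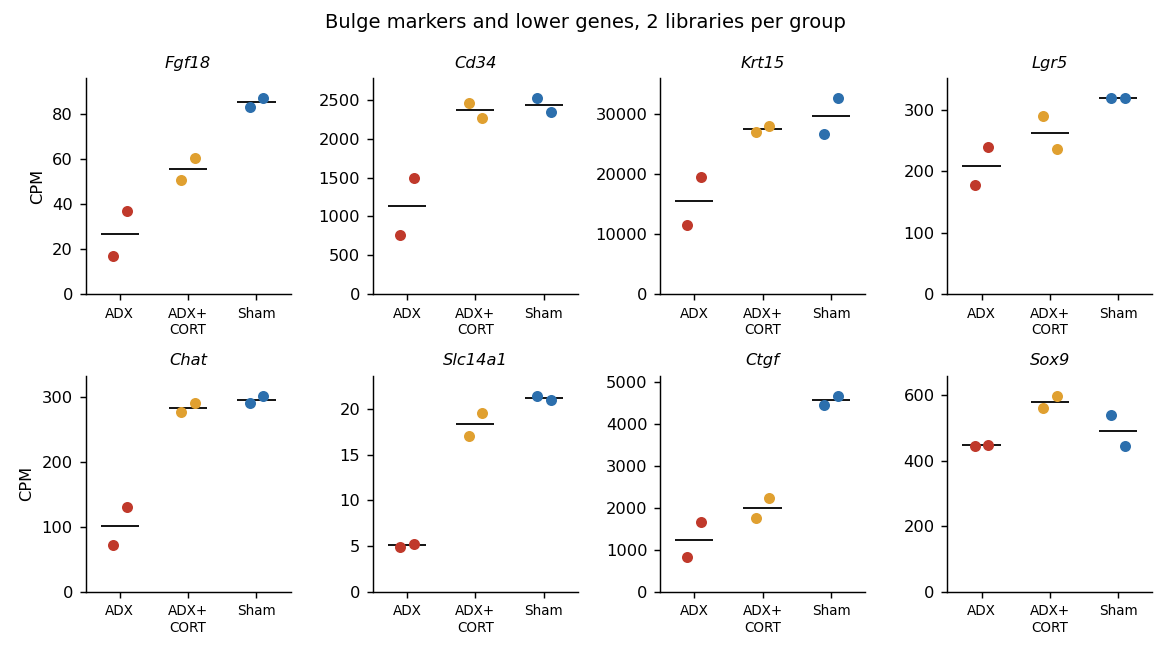
CPM of 4 bulge markers, the 2 fallen genes, Ctgf and the transcription factor Sox9 in the 2 libraries of ADX, ADX+CORT and Sham HFSC, with points for libraries and black lines for group means. Fgf18, Cd34, Krt15, Lgr5, Chat, Slc14a1 and Ctgf are lower in both ADX libraries than in both Sham libraries, while Sox9 overlaps.

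Of the signals of the niche, the BMP, WNT, FGF and TGF-beta lists gave no call. Over all genes tested, 9.01% were higher and 6.21% lower at an unadjusted p under 0.05. BMP proteins, which hold bulge cells at rest, were represented by 23 tested genes, of which 4 were higher and 3 lower at that level. The ligand Bmp4 had 20.2 and 22.1 CPM in ADX and 3.11 and 6.64 CPM in Sham (log2 fold change 2.12, edgeR adjusted p = 0.108), the target Id1 had 516 and 468 CPM in ADX and 280.3 and 278 CPM in Sham (0.82, edgeR adjusted p = 0.178), and the antagonist Grem1 had 323 and 409 CPM in ADX and 787 and 610 CPM in Sham (−0.93, edgeR adjusted p = 0.118). The ligand Bmp2 went the other way from Bmp4, with 12.8 and 16.4 CPM in ADX and 25.9 and 31.5 CPM in Sham (−0.97, edgeR adjusted p = 0.226). Among 35 WNT genes 4 were higher and 5 lower at that level, with the secreted inhibitor Wif1 at 43.2 and 53.9 CPM in ADX and 108 and 81.5 CPM in Sham (−0.97, edgeR adjusted p = 0.1005). Of 19 FGF genes and 20 TGF-beta genes, 0 were higher and 2 lower in each list at that level. Of 25 integrin, laminin and hemidesmosome genes, which serve anchorage to the basement membrane, 4 were lower and 0 higher at that level. Their median log2 fold change was −0.28. Itgb5, an integrin beta subunit, had 46.3 and 77.1 CPM in ADX and 125 and 102 CPM in Sham (log2 fold change −0.88, SE 0.26, edgeR adjusted p = 0.134), without overlap.

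Genes known to be induced by glucocorticoids did not move one way. Of 28 tested genes of this class 1 rose, Angptl4, and 27 did not pass. At an unadjusted p under 0.05, 6 were higher and 3 lower, next to 9.01% and 6.21% of all genes tested. The median log2 fold change of the 28 was 0.08. Angptl4 (chr17:33773750-33781575), a secreted inhibitor of lipoprotein lipase, had 9.99 and 109 CPM in ADX, 65.8 and 82.7 CPM in ADX+CORT, and 1.64 and 3.39 CPM in Sham (log2 fold change 4.57, SE 0.83, edgeR adjusted p = 0.0453). ADX replicate 2 was about an order of magnitude above ADX replicate 1, and the log2 fold change was 5.44 without ADX replicate 1, 2.01 without ADX replicate 2 and 5.17 without Sham replicate 2. The adjusted p was 0.252 without Sham replicate 1, 0.134 without Sham replicate 2 and 0.0509 in the fit of the surgery libraries. The transcription factor Klf15 had 12.5 and 25.9 CPM in ADX, 33.1 and 54.3 CPM in ADX+CORT, and 56.7 and 63.8 CPM in Sham (−1.65, SE 0.38, edgeR adjusted p = 0.0848). Both ADX libraries were below the other 4. Tsc22d3, which encodes the leucine zipper protein GILZ, had 74.5 and 248 CPM in ADX, 47.9 and 300 CPM in ADX+CORT, and 273 and 363 CPM in Sham (−0.98, SE 0.71, edgeR adjusted p = 0.538). The receptor chaperone Fkbp5 (−0.16), the transcription factor Zbtb16 (−0.20) and the clock gene Per1 (−0.92) did not pass either, with edgeR adjusted p = 0.953, 0.920 and 0.339. Fkbp5 and Zbtb16 overlapped between groups and changed sign without ADX replicate 1 (0.55 and 0.46). In the other direction, the transcription factor Cebpb had 264 and 244 CPM in ADX and 108 and 122.7 CPM in Sham (1.14, edgeR adjusted p = 0.0701), and Glul, glutamine synthetase, had 32.9 and 54.4 CPM in ADX and 11.3 and 17.9 CPM in Sham (1.58, edgeR adjusted p = 0.0946).

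The receptor gene Nr3c1 had 267 and 266 CPM in ADX, 388 and 319 CPM in ADX+CORT, and 421 and 399.8 CPM in Sham (log2 fold change −0.62, SE 0.24, edgeR adjusted p = 0.233). The ADX libraries were lower without overlap. The mineralocorticoid receptor gene Nr3c2, which corticosterone also activates, had 12.2 and 6.90 CPM in ADX and 10.5 and 11.8 CPM in Sham, and overlapped. Hsd11b2, the enzyme that inactivates corticosterone, had 128 reads in ADX and 0 in Sham, at least 42.5-fold higher against 3 reads over the group, but ADX replicate 1 held 8.86 CPM and ADX replicate 2 only 0.12 CPM. Gas6 had 248 and 239 CPM in ADX, 380 and 355 CPM in ADX+CORT, and 288 and 335 CPM in Sham (−0.35, SE 0.24, edgeR adjusted p = 0.515). Both ADX libraries lay below the other 4. Its receptor kinase Axl had 68.6 and 101 CPM in ADX and 160 and 118 CPM in Sham (−0.72, SE 0.24, edgeR adjusted p = 0.188), and the related kinase Tyro3 had 15.6 and 18.7 CPM in ADX and 31.3 and 35.2 CPM in Sham (−0.95, SE 0.35, edgeR adjusted p = 0.217). For both receptors each ADX library lay below each Sham library. Mertk and the ligand Pros1 stood at 0.16 and 0.26 on the log2 scale. Of 7 genes in a list of TAM ligands, receptors and related enzymes none passed. At an unadjusted p under 0.05, 1 was higher and 3 lower, next to 9.01% and 6.21% of all genes tested. The higher one, Vkorc1, and Ggcx among the lower ones are enzymes, neither ligands nor receptors. The other lower ones were Axl and Tyro3.

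The palindromic glucocorticoid response element, matched with no mismatch, occurred in the promoter window of 1 of 27 matched genes of the glucocorticoid-induced class, the kinase gene Sgk1, and in 3 of the 32851 windows. The looser form ACANNNTGT, which the palindrome contains, was found in 8 of 39 windows of that class and in 6.85% of all windows. The half-site AGAACA, also contained in the palindrome, was found in 7 of the 39 windows and in 19.0% of all. Among the 43 risen genes 25 had an entry, in 35 windows, of which 0 held the palindrome, 1 held the looser form and 7 held the half-site. All searches covered both strands.

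Of the genes of the upper follicle, cornified layers and hair shaft, 5 rose, and most members of these lists did not pass. Defb6 (chr8:19225478-19228209), an antimicrobial beta-defensin, had 156 and 198 CPM in ADX, 62.4 and 72.3 CPM in ADX+CORT, and 24.7 and 21.3 CPM in Sham, 2.94 on the log2 scale (SE 0.41, edgeR adjusted p = 0.0193). Cst6, a cysteine protease inhibitor, had 553 and 774 CPM in ADX, 382 and 474 CPM in ADX+CORT, and 144 and 205 CPM in Sham, 1.93 on the log2 scale (SE 0.34, edgeR adjusted p = 0.0393). For both genes the ADX+CORT libraries lay between the other groups. The cornified envelope precursors Sprr4 (log2 fold change 3.58, with 7.45 and 7.25 CPM in ADX and 0.65 and 0.56 CPM in Sham) and Sprr1a (log2 fold change 1.52) rose too. The hair keratin Krt35 had 9.70 and 4.45 CPM in ADX, 214 reads in both libraries, against 1 read over both Sham libraries (edgeR adjusted p = 0.0455). Scaled to depth, ADX exceeded Sham 213-fold, with 95% limits from counting error of 37.8 and 8456. Of 12 upper follicle genes 2 rose and 10 did not pass, 7 were higher and 0 lower at an unadjusted p under 0.05, and their summed level was 8450 and 7881 CPM in ADX and 4129 and 4848 CPM in Sham. Ly6d, a surface protein of differentiating cells, had 2835 and 2667 CPM in ADX and 488 and 819 CPM in Sham (log2 fold change 2.07, edgeR adjusted p = 0.0739). Among 27 differentiated epidermis genes 1 rose, and the median was 0.00. At an unadjusted p under 0.05, 3 of the 27 were higher and 2 lower, next to 9.01% and 6.21% of all genes tested. Loricrin (Lor) had 14.2 and 21.1 CPM in ADX and 49.3 and 51.0 CPM in Sham (−1.51, edgeR adjusted p = 0.0882). Defb6 remained called without ADX replicate 1 (adjusted p = 0.0306), and the other 4 did not (up to 0.261). None of the 5 calls remained without Sham replicate 1 (0.135 to 0.316) or Sham replicate 2 (0.102 to 0.154), nor with the offset for GC content and length (0.0652 to 0.113).

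Signalling genes formed a further set of 7 calls. Hbegf, a membrane-bound ligand of the EGF receptor, had 83.5 and 54.8 CPM in ADX, 30.5 and 33.5 CPM in ADX+CORT, and 14.7 and 17.6 CPM in Sham, 2.10 on the log2 scale (SE 0.30, edgeR adjusted p = 0.0231). Tnfaip3, the NF-kappaB inhibitor A20, had 71.4 and 61.5 CPM in ADX, 48.0 and 30.02 CPM in ADX+CORT, and 23.3 and 16.9 CPM in Sham, 1.73 on the log2 scale (SE 0.29, edgeR adjusted p = 0.0393). The orphan nuclear receptor Nr4a1 had 262 and 325 CPM in ADX, 283 and 208 CPM in ADX+CORT, and 107 and 97.7 CPM in Sham, 1.52 on the log2 scale (SE 0.27, edgeR adjusted p = 0.0439). For Nr4a1 and the zinc finger factor Egr2 (38.0 and 48.4 CPM in ADX, 41.8 and 37.6 CPM in ADX+CORT, 16.7 and 17.3 CPM in Sham), the ADX+CORT libraries lay in or close to the ADX range. The Notch target Hes1 (log2 fold change 1.91), the clock repressor Bhlhe40 (1.53) and the polo-like kinase Plk2 (1.49) also rose, and without ADX replicate 1 the value for Hes1 was 1.23. Of 25 immediate early genes, transcription factors that stimuli including tissue dissociation raise within minutes, 2 rose and 23 did not pass, 6 were higher and 0 lower at an unadjusted p under 0.05, and the median was 0.32. Over all genes tested 0.282% rose, and 9.01% were higher and 6.21% lower at that level. Of 30 NF-kappaB and cytokine genes 1 rose, 10 were higher and 2 lower at that level, and the median was 0.99. Atf3, a stress-induced factor, had 691 and 1273 CPM in ADX and 360 and 425 CPM in Sham (edgeR adjusted p = 0.105), and the chemokine Ccl20 had 13.9 and 22.5 CPM in ADX and 1.41 and 1.55 CPM in Sham (edgeR adjusted p = 0.136). None of the 7 calls remained without ADX replicate 1 (adjusted p 0.106 to 0.330) or without Sham replicate 1 (0.177 to 0.344) or 2 (0.102 to 0.251), 2 (Nr4a1 and Egr2) were lost without ADX replicate 2 (0.0531 and 0.0637), and none remained with the offset for GC content and length (0.0597 to 0.0737).

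Among genes of lipid handling and transport, Fabp5, a fatty acid carrier, had 386 and 267 CPM in ADX, 103 and 207 CPM in ADX+CORT, and 62.0 and 78.5 CPM in Sham, 2.22 on the log2 scale (SE 0.35, edgeR adjusted p = 0.0359). Slco2b1, an organic anion transporter, had 11.4 and 12.3 CPM in ADX, 9.44 and 6.95 CPM in ADX+CORT, and 1.35 and 1.13 CPM in Sham, 3.25 on the log2 scale (SE 0.45, edgeR adjusted p = 0.0193). Slco2b1 kept its call with the offset for GC content and length (adjusted p = 0.0497) and lost it without ADX replicate 1 (0.0590), Sham replicate 1 (0.135) or Sham replicate 2 (0.102). Fabp5 lost its call without ADX replicate 1 (0.124), Sham replicate 1 (0.205) and Sham replicate 2 (0.102).

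A further 13 genes rose outside these groups, and all but the interferon-induced Ifi27l2a, the mesenchymal filament Vim, the protease inhibitor Timp3 and Tnfaip8l1 lie outside the rule for naming and are given because they passed. Mfap2, a microfibril protein, had 115 and 103 CPM in ADX and 21.1 and 31.1 CPM in Sham (log2 fold change 2.06, SE 0.27, edgeR adjusted p = 0.0193). Arhgdib had 149 and 156 CPM in ADX and 44.9 and 43.4 CPM in Sham (1.78, SE 0.25, edgeR adjusted p = 0.0193). In both genes the ADX libraries were alike and far above Sham. The homeodomain gene Cux1 (log2 fold change 1.77), the gasdermin gene Gsdma3 (2.37), Tm4sf1 (1.99), Timp3 (1.37), Vim (1.51), Tnfaip8l1 (2.72), Ifi27l2a (2.40) and 1810011O10Rik (2.52) rose too. Sham held 0 reads for Cd209e, Cd83 and Adam8, against 45, 121 and 79 reads in ADX, so these were at least 14.9-fold, 40.2-fold and 26.2-fold higher against 3 reads over the group, counting error only. Cd83 marks activated antigen-presenting cells, and Cd209e is a C-type lectin of myeloid cells. None of the 13 passed without Sham replicate 1 (adjusted p 0.135 to 0.268) or Sham replicate 2 (0.0507 to 0.223), and 2, Cd209e and Cd83, passed without ADX replicate 1. In the fit of the 6 surgery libraries Cd209e (adjusted p = 0.0901), Cd83 (0.0580), Adam8 (0.0549) and Gsdma3 (0.0558) did not pass. Without Sham replicate 1 the log2 fold change of Gsdma3 was 3.10.

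Cytoplasmic ribosomal protein genes were higher in ADX, though none of 82 tested passed. At an unadjusted p under 0.05, 79 were higher and 0 lower, next to 9.01% and 6.21% of all genes tested. The ADX libraries lay above both Sham libraries for all 82, next to 25.5% of all genes tested. The median log2 fold change was 0.97, and 0.73 without ADX replicate 1. Summed, all 85 genes of the list, tested or not, held 42465 and 32265 CPM in ADX, 16407 and 21805 CPM in ADX+CORT, and 19046 and 21353 CPM in Sham. Rps27, for example, had 618 and 515 CPM in ADX and 258 and 268 CPM in Sham (log2 fold change 1.11, SE 0.22, edgeR adjusted p = 0.0600). Of 30 nuclear genes of oxidative phosphorylation, 18 were higher and 1 lower at that level, none passed, and the median was 0.58.

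The fold change varied with the exonic length of genes. In the fifth of genes with the shortest exonic length (158 to 1970 bp) the median log2 fold change was 0.37, and in the others it was 0.01, −0.08, −0.08 and −0.08. With an offset for GC content and length the median of the ribosomal protein genes was 0.63, that of the oxidative phosphorylation genes 0.04, that of the G2 and M phase genes 2.03 and that of the histone genes 1.69, where that of all genes was −0.08.

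**Figure D4:**
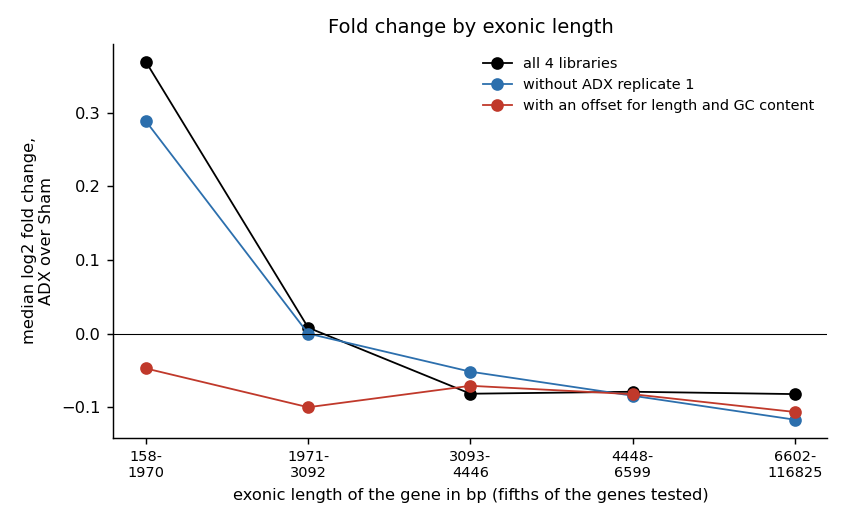
Median log2 fold change, ADX over Sham, of the genes tested in 5 bins of exonic length in bp, with all 4 libraries (black), without ADX replicate 1 (blue) and with an offset for length and GC content (red). The bin of the shortest genes stands at 0.37 with all libraries, at 0.29 without ADX replicate 1 and at −0.05 with the offset.

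Marker lists of other cell types differed in direction. Over all 15231 genes tested, 7554 had a log2 fold change above 0 and 7510 below. Sums cover all list members found, tested or not. Red blood cell genes summed to 57.4 and 102 CPM in ADX, 5.09 and 53.3 CPM in ADX+CORT, and 3.82 and 7.63 CPM in Sham, with 5 of 5 tested genes higher and Slc4a1 at 0 in all 4 libraries. Endothelial genes summed to 60.1 and 50.8 CPM in ADX, 80.0 and 47.8 CPM in ADX+CORT, and 17.3 and 26.6 CPM in Sham. Of these, 13 of 15 were higher in ADX than in Sham and none was at 0 throughout. Sebaceous gland genes summed to 466 and 556 CPM in ADX, 429 and 818 CPM in ADX+CORT, and 250 and 317 CPM in Sham. Of these, 16 of 16 were higher in ADX than in Sham. Awat1, a wax synthase with 366 reads in ADX, and Mc5r had no reads in Sham. For immune cell genes 21 of 25 were higher, yet the sums overlapped, at 278 and 517 CPM in ADX and 338 and 393 CPM in Sham, and Adgre1, Cd7, Cpa3 and Mcpt4 were at 0 in Sham. Of 10 melanocyte genes 7 were higher, with sums of 111 and 121 CPM in ADX and 124 and 140 CPM in Sham. None of these genes passed the threshold. Skeletal muscle genes were lower for 8 of 11 (median log2 fold change −2.40), with sums of 14.1 and 20.2 CPM in ADX and 20.5 and 22.9 CPM in Sham. Pericyte and smooth muscle genes overlapped, with sums of 393 and 545 CPM in ADX and 466 and 665 CPM in Sham. Hair germ and matrix genes summed to 725 and 810 CPM in ADX and 862 and 799.5 CPM in Sham, with 12 of 20 tested higher and Shh at 0. Their median log2 fold change was 0.39, and −0.18 without ADX replicate 1. The part of these markers in the changes described above, the cell cycle, upper follicle and myeloid-associated genes included, was not tested.

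**Figure D5:**
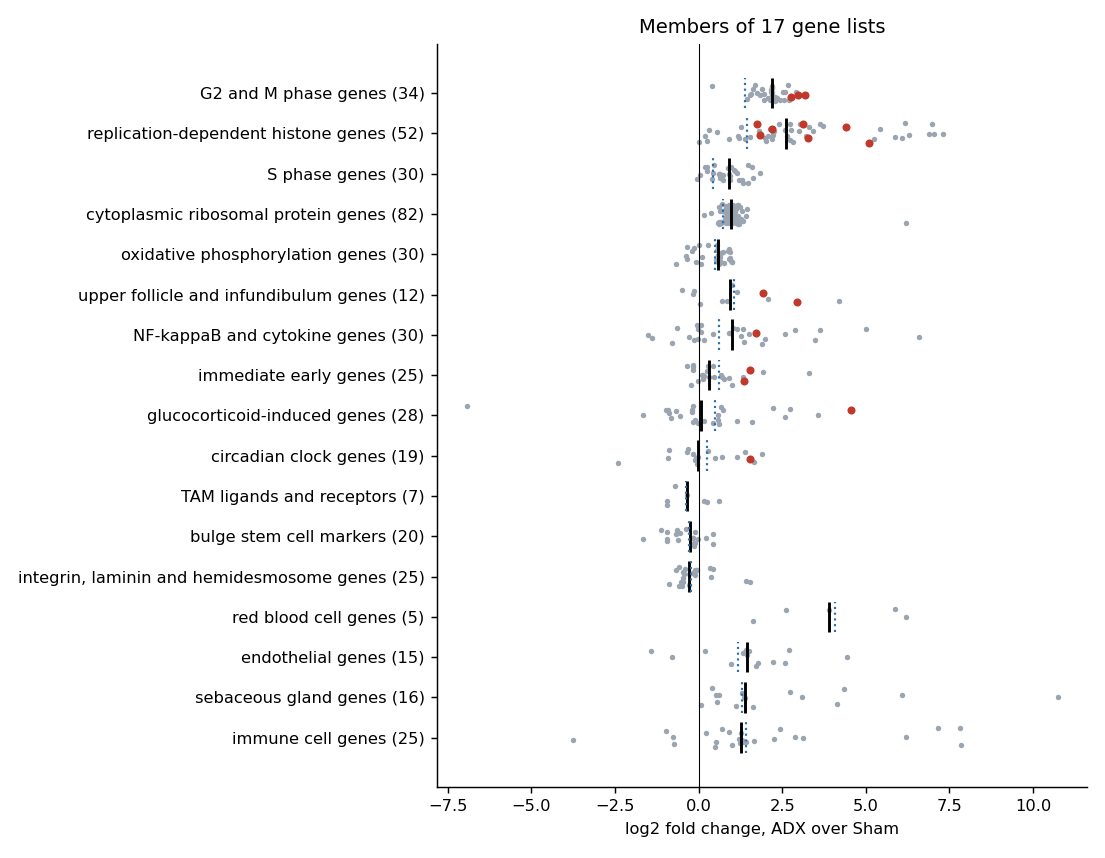
Log2 fold change, ADX over Sham, of the tested members of 17 gene lists, with the number of members in brackets; red points passed an edgeR adjusted p of 0.05, black bars are medians with all 4 libraries and dotted blue bars medians without ADX replicate 1. The medians are 2.19 for G2 and M phase genes, 2.61 for histone genes, 0.97 for ribosomal protein genes and −0.26 for bulge stem cell markers.

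The change after adrenalectomy was tested against the change in HFSC after deletion of the glucocorticoid receptor in Pdgfra-expressing dermal cells. No gene of 15231 differed between the effects in edgeR (0%), 1610 (10.6%) did at an unadjusted p under 0.05, and DESeq2 called 108 of the 19619 genes with any read (0.550%). G2 and M phase genes summed to 1862 and 4058 CPM in GR KO and 561 and 260 CPM in Control HFSC. Ccnb2 had 73.6 and 136 CPM in GR KO and 15.6 and 6.49 CPM in Control, and its effects differed by −0.08 on the log2 scale (SE 0.72, edgeR adjusted p = 0.997). Cd34 had 784 and 663 CPM in GR KO and 1924 and 2143 CPM in Control, with a difference between effects of 0.38 (SE 0.40, edgeR adjusted p = 0.791). Nr4a1 had 202 and 119 CPM in GR KO and 333 and 347 CPM in Control, the opposite side from adrenalectomy, with a difference of 2.61 (SE 0.38, edgeR adjusted p = 0.104). Angptl4 had 21.1 and 26.2 CPM in GR KO and 19.9 and 14.6 CPM in Control, with a difference of 4.12 (SE 1.05, edgeR adjusted p = 0.372). A p that misses the threshold does not show that the effects were alike, and the experiments also differed in strain and tamoxifen. They differed in immune cell genes too, which summed to 4164 and 5271.5 CPM in GR KO and 4553 and 4713 CPM in Control. In ADX these sums were 278 and 517 CPM, and in Sham 338 and 393 CPM. The part of this difference in the test was not tested. Without GR KO replicate 1 the edgeR count was 20 genes, without ADX replicate 1 it was 4, without Control replicate 2 it was 3 and without Sham replicate 2 it was 1.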

How the data were processed

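Per the file headers, the authors' deposited counts are whole reads per gene from featureCounts 1.6.1, taken over exons without regard to strand and requiring a mapping quality of at least 30. Per the submitters' processing notes, Trim Galore 0.4.1, STAR 2.5.3 and DESeq2 1.22.2 were used on mm10, and the labels' protocols name SMART-Seq v4 for cDNA and Nextera XT for the libraries. Overlapping genes, antisense ones included, may share reads. Names turned into dates in the ADX+CORT files were restored from coordinates.

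A single fit of all 10 HFSC libraries, with group means as its coefficients, was made in edgeR 4.0.16 (R 4.3.3, TMM scaling, default filter on low counts, quasi-likelihood test, 5 residual degrees of freedom, biological coefficient of variation 38.7%). Adjusted p-values are Benjamini-Hochberg values over the 15231 genes tested. CPM are counts relative to TMM-scaled library size, as edgeR gives them, standard errors come from the F statistic, and counting intervals and floors of 3 reads cover counting error only. Steps were tested on simulated counts. The comparison, its 43 gene lists and the motifs were chosen with earlier results of these data known. Genes were named by a rule: up to 15 per direction with the largest change among calls with a mean of at least 5 CPM and no overlap, 5 per direction with the smallest p where fewer than 10 passed, up to 4 per list, and 8 fixed genes. Genes named outside it, such as Mki67, and the further calls were chosen after their values were seen. Replicate numbers were not treated as pairs, since deviations of same-numbered libraries correlated at −0.02. Alternatives were the Wald test of DESeq2 1.42.0, edgeR with median-of-ratios scaling or without a filter, fewer libraries in the fit, the replicate block, each library left out, and, chosen after seeing the data, an offset for GC content and length (GC found for 97.0% of genes). Dermal papilla files were not used here.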

Additional observations from a re-analysis of the deposited data

How the results depend on the processing

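Relative to the 43 risen and 2 fallen genes, DESeq2 called 574 and 266, a fit without the filter on low counts 639 and 249, a fit of only the ADX and Sham libraries 80 and 13, and a fit of the 6 libraries of the surgery experiment 110 and 36. The replicate block gave 9 and 0, the 9 among the 43, and the offset for GC content and length 2 and 0. Leaving out each library in turn gave 0 to 169 risen and 0 to 66 fallen. The number of genes whose effects differed from those of GR deletion, 0 in the main fit, was 108 with DESeq2, 256 without the filter, and 0 to 20 when a library was left out; at an unadjusted p it was 1610 in edgeR. Of 1264 values for 115 named genes under 11 alternatives, 1253 kept their sign. The 11 that reversed concern 7 genes, given here as log2 fold changes. With a library left out they ranged from −0.27 (without Sham replicate 2) to 0.011 (without Sham replicate 1) for Sox9, −0.074 (without Sham replicate 2) to 0.062 (without ADX replicate 1, next to 0.060 without Sham replicate 1) for Krt14, −0.38 (without Sham replicate 2) to 0.11 (without Sham replicate 1) for Foxc1, −0.69 (without ADX replicate 1) to 0.15 (without ADX replicate 2) for Nr3c2, −1.68 (without ADX replicate 2) to 0.67 (without Sham replicate 2) for Fkbp5, −1.43 (without ADX replicate 2) to 0.46 (without ADX replicate 1) for Zbtb16 and −0.33 (without ADX replicate 1) to 0.10 (without ADX replicate 2) for Cdkn1b. Foxc1 also reversed with the offset (0.031). The cause of these changes was not tested. An arm left with 1 library was assumed to vary like the others, and 2 libraries per group limit every call.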

Other observations

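Clock genes were divided. Of 19 tested, Bhlhe40 rose, and 4 were higher and 2 lower at an unadjusted edgeR p under 0.05, next to 9.01% and 6.21% of all genes. Npas2, a partner of the activator Arntl, had 7.10 and 5.44 CPM in ADX and 37.1 and 28.9 CPM in Sham (log2 fold change −2.40, SE 0.68, edgeR adjusted p = 0.122). The output factor Hlf had 18.3 and 13.7 CPM in ADX and 6.11 and 4.10 CPM in Sham (1.64, SE 0.57, edgeR adjusted p = 0.198). Neither gene overlapped between groups, and the labels give no time of day. Collagen and matrix genes were divided as well, with Timp3 the 1 call among 36 and 5 higher and 5 lower at that level. Dcn, a small proteoglycan of the dermis, had 99.0 and 64.8 CPM in ADX and 21.03 and 34.5 CPM in Sham (1.56, edgeR adjusted p = 0.086), while Col6a1 had 203 and 294 CPM in ADX and 447 and 464 CPM in Sham (−0.87, edgeR adjusted p = 0.140).

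At an unadjusted p under 0.05, next to 9.01% of all genes higher and 6.21% lower, further lists were heat shock (3 higher and 0 lower of 15), endoplasmic reticulum stress (0 and 4 of 26), cholesterol synthesis (1 and 3 of 24), p53 targets (2 and 0 of 20) and mitochondrially encoded genes (0 and 0 of 8). Of 28 interferon response genes 1 rose (Ifi27l2a) and 3 were higher and 1 lower at that level. Of 24 metallothionein and oxidative stress genes 6 were higher and 0 lower.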
